A study of Homo sapiens with 10 samples.

Results

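The mRNAs described here encode proteins of the extracellular matrix and enzymes that modify it. They are 40 genes fixed by name and matched through their GENCODE 29 symbols: 13 collagen chains, 8 laminin chains and basement membrane proteoglycans, 6 matrix glycoproteins, 4 protease inhibitors, 4 cross-linking enzymes and 5 collagen hydroxylases. All 40 have a row among the 94946 entries of the deposited count table, 45574 of which are GENCODE genes. The libraries are total RNA from PC3, a human prostate cancer line established from a bone metastasis, and from the extracellular vesicles (EVs) it releases. EVs were pelleted at 3 spins that the labels name 2.8K, 10K and 100K, with no unit. Each pellet has 3 libraries, numbered set 1 to 3, and whole cells have 1 library. Every group comes from this 1 line, with no treatment or genetic change named, grown in DMEM with fetal bovine serum, L-glutamine and PenStrep. The labels do not say that the sets were separate cultures, so p-values measure the spread between these libraries, which may be technical.

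Matrix proteins are made on the rough endoplasmic reticulum and secreted. Collagen chains carry glycine as the first residue of each triplet in the stretch that winds into a triple helix, and prolyl and lysyl hydroxylases modify them before 3 chains assemble. Laminins, type IV collagen, perlecan and agrin form the basement membrane under epithelia, while lysyl oxidases and transglutaminase cross-link the assembled matrix and TIMPs and serpins restrain the proteases that degrade it. Spins of rising force pellet large vesicles and cell fragments first and small vesicles, with other particles, last.

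Type VI collagen is shown first, since COL6A1 and COL6A2 take the largest counts of the 40 and its chains did not move together. Its main form is a heterotrimer of the products of COL6A1, COL6A2 and COL6A3. COL6A1 (chromosome 21, 45981737 to 46005050, GRCh38, plus strand) and COL6A2 (chromosome 21, 46098097 to 46132849, plus strand) are near neighbours, and COL6A3 lies on chromosome 2 (237324003 to 237414375, minus strand). The first 60 bases of each coding sequence follow, from the GENCODE 29 transcript with the longest coding sequence, with the start codon in capitals.
COL6A1: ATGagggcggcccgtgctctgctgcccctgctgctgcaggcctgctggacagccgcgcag
COL6A2: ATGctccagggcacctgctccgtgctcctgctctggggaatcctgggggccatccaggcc
COL6A3: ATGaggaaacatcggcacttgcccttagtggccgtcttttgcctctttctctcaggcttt
The collagen repeat is shown for COL6A2 and COL6A3 by 90 bases from the longest uninterrupted run of Gly-X-Y codons in each, with the glycine codons in capitals.
COL6A2: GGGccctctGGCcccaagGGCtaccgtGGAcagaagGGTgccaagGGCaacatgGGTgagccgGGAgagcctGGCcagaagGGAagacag
COL6A3: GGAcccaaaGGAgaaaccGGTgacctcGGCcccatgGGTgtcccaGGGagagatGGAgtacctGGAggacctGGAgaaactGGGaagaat
That run is 87 triplets long in COL6A2 and 45 in COL6A3. The whole transcripts of COL6A1, COL6A2 and COL6A3 measure 4238, 3461 and 10749 bases, and the coding sequences have a GC content of 65.0%, 65.5% and 54.4%, so COL6A1 and COL6A2 are both shorter and richer in GC than COL6A3.

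Total counts ran from 5424964 to 14977955 in the EV libraries and reached 28735081 in the cells, and a count of 0 allows a level of up to 0.0869 to 0.550 CPM, depending on the library. Levels are CPM (counts scaled to a common library total, with TMM factors), given in the order set 1, 2 and 3, and differences are fitted log2 fold changes ± standard error from edgeR's quasi-likelihood test, with p-values adjusted by Benjamini-Hochberg over 15525 genes and a threshold of 0.05. Of the markers of the line, KRT8, KRT18, KRT19, VIM and CD44 had counts in all 10 libraries and CDH1 was at 0 in 6, while the androgen-driven luminal genes KLK3, KLK2 and ACPP were at 0 in all 10. The 8 PC3 and epithelial markers summed to 2713 to 3573 CPM in 2.8K EVs, 2133 to 2704 in 10K EVs, 1027 to 1209 in 100K EVs and 2273 in the cells. Of these markers, 5 of the 7 tested were lower in 100K EVs than in 2.8K EVs, where 13.8% of all genes tested were called lower. The part of these markers in the matrix results was not tested. Mitochondrial MT-CO1 was at 22737, 7598 and 7071 CPM in 2.8K EVs, 1280, 1849 and 1627 in 10K EVs, 10.7, 8.07 and 13.5 in 100K EVs and 4491 in the cells. ACTB fell by 2.61 on the log2 scale between 2.8K EVs and 100K EVs and GAPDH by 1.85. These values are relative to the other RNAs of a library: fewer vesicles that carry an mRNA and less of it in each cannot be told apart in bulk pellets.

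Matrix mRNAs made up a smaller share of the counts at each faster spin. They took 0.718%, 0.605% and 0.697% of all counts in the 2.8K EV libraries, 0.291%, 0.313% and 0.325% in 10K EVs and 0.149%, 0.189% and 0.193% in 100K EVs. The groups did not overlap, and the means were 0.673% ± 0.0599, 0.309% ± 0.0174 and 0.177% ± 0.0244 (SD, n = 3 each), against 1.01% in the single cell library (95% Wilson interval 1.00% to 1.01%, counting error only). COL6A1 and COL6A2 alone held 0.249% ± 0.0738 of the counts in 2.8K EVs and 0.0278% ± 0.00281 in 100K EVs (SD, n = 3). Without this pair the other 38 genes still went from 0.425% ± 0.0443 through 0.215% ± 0.0177 to 0.149% ± 0.0217 (SD, n = 3).

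Members that passed the test were lower at the faster spin in each comparison of pellets. Of the 40 genes, 37 passed the filter on low counts (TGFBI, TIMP3 and LOX did not). 10K EVs against 2.8K EVs gave 11 lower members, while 2.22% of all genes tested were called lower, and no higher member, with 4.15% of all genes called higher. 100K EVs against 2.8K EVs gave 27 lower members (13.8% of all genes) and no higher one (12% of all genes). 100K EVs against 10K EVs gave 7 lower (7.23% of all genes) and again no higher one (3.7% of all genes). The joint test for any difference among the 3 pellets called 26 members, against 23.3% of all genes. The median fitted log2 change of the tested members was -0.73, -1.51 and -0.65 in the same 3 comparisons, and that of all genes tested was -0.01, -0.06 and 0.01. The members are also more abundant than most genes: among the 6906 protein-coding nuclear genes whose EV libraries averaged 20 CPM or more, a limit chosen after seeing the data, 25.4% were lower and 20.1% higher in 100K EVs than in 2.8K EVs, and 26 of the 33 members at that level were lower. None of the 3 counts of higher members rose above 0 under DESeq2 or any other setting tried. Without the 10K EV library of set 1 the 11 became 7, and without the 2.8K EV library of set 1 the 7 became 11.

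**Figure D1:**
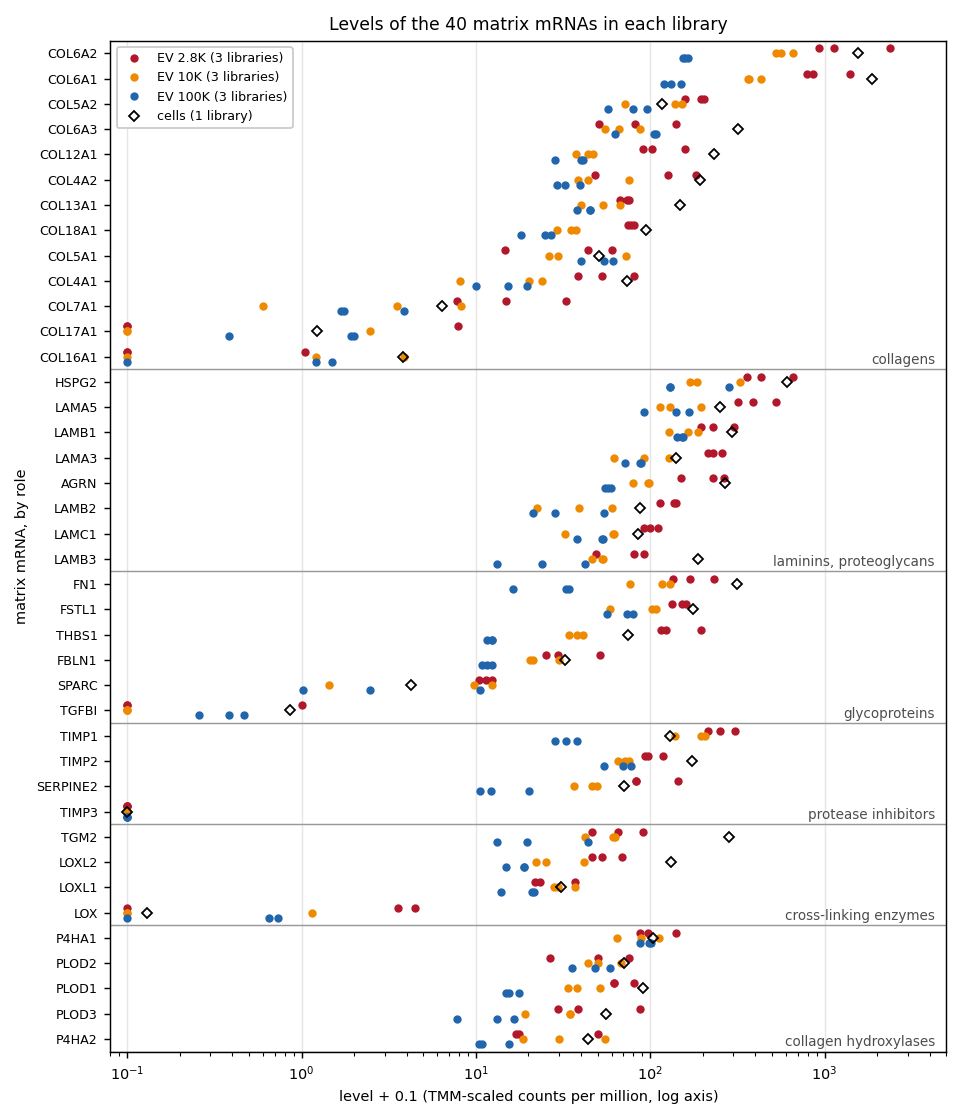
Level of each of the 40 matrix mRNAs (TMM-scaled CPM plus 0.1, log axis) in the 9 EV libraries (filled points, coloured by pellet) and the cell library (open diamonds), grouped by role. COL6A1 and COL6A2 lie at 796 to 2358 CPM in 2.8K EVs and at 120.1 to 165 in 100K EVs, while the points of COL6A3, COL5A1, PLOD2 and P4HA1 are interleaved.

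COL6A2 and COL6A1 were the members with the highest counts. COL6A2 was at 2358, 926 and 1138 CPM in 2.8K EVs, 659, 530 and 564 in 10K EVs, 159, 165 and 155 in 100K EVs and 1561 in the cells. COL6A1 was at 1404, 796 and 857 CPM in 2.8K EVs, 370, 364 and 431 in 10K EVs, 120, 132 and 150 in 100K EVs and 1865 in the cells. In both, the 3 pellets did not overlap, and set 1 was the highest 2.8K EV library. COL6A2 fell at both steps, by 1.33 ± 0.27 on the log2 scale between 2.8K EVs and 10K EVs (adjusted p = 0.0047) and by 1.88 ± 0.27 between 10K EVs and 100K EVs (adjusted p = 2.1e-04), a total of -3.22 ± 0.29, adjusted p = 2.5e-07. COL6A1 fell at both steps too (-1.39 ± 0.22, adjusted p = 5.8e-04, then -1.55 ± 0.22, adjusted p = 1.9e-04), with a total of -2.94 ± 0.23, adjusted p = 7.5e-08.

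COL6A3, which encodes the third and largest chain, was at 140, 81.3 and 50.9 CPM in 2.8K EVs, 86.9, 65.7 and 54.8 in 10K EVs, 108, 105 and 62.6 in 100K EVs and 318 in the cells. Its 3 pellets overlapped, and no comparison passed (100K EVs against 2.8K EVs: 0.01 ± 0.33, adjusted p = 0.99). The level ratio of COL6A1 to COL6A3 within a library was therefore 9.78 to 16.8 in 2.8K EVs, 4.26 to 7.87 in 10K EVs and 1.11 to 2.39 in 100K EVs, and 5.87 in the cells, with no overlap between pellets. The ratio of COL6A1 to COL6A2 stayed between 0.561 and 0.969 in all 9 EV libraries and was 1.19 in the cells. Ratios between members were chosen after their values were seen and were not tested.

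The fibrillar type V chains also parted. COL5A2, whose product makes up the rarer chain of type V collagen, was at 203, 157 and 197 CPM in 2.8K EVs, 138, 71.5 and 152 in 10K EVs, 95.5, 57.2 and 79.9 in 100K EVs and 117 in the cells. 2.8K EVs lay above 100K EVs in every library, and 10K EVs overlapped 100K EVs. Only 100K EVs against 2.8K EVs passed (-1.27 ± 0.28, adjusted p = 0.0022), and the step from 10K EVs to 100K EVs passed without the 10K EV library of set 2 (adjusted p = 0.043). COL5A1, its partner chain, was at 14.7, 59.9 and 44.0 CPM in 2.8K EVs, 72.1, 29.7 and 26.3 in 10K EVs, 40.1, 54.3 and 60.9 in 100K EVs and 50.7 in the cells. Its pellets overlapped throughout and nothing passed (100K EVs against 2.8K EVs: 0.38 ± 0.45, adjusted p = 0.62).

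Both basement membrane chains of type IV collagen were lower in 100K EVs than in 2.8K EVs, COL4A1 by 1.95 ± 0.45 on the log2 scale (adjusted p = 0.0032) and COL4A2 by 1.82 ± 0.39 (adjusted p = 0.0018). Between 2.8K EVs and 10K EVs, COL4A1 passed (-1.73 ± 0.45, adjusted p = 0.025) and COL4A2 did not (-1.18 ± 0.38, adjusted p = 0.079). The first call was lost without the 2.8K EV library of set 3 or the 10K EV library of set 1 or 2 (adjusted p = 0.069 to 0.12), and COL4A2 passed without the 2.8K EV library of set 1 (adjusted p = 0.0015). These genes are transcribed in opposite directions from start sites 127 bases apart. The 126 bases between the starts (RefSeq, GRCh38.p14, chr13:110307158-110307283, plus strand, COL4A1 to the left and COL4A2 to the right) are printed because both mRNAs begin at its ends and both fell, with CCAAT and GGGCGG in capitals.
COL4A1 and COL4A2: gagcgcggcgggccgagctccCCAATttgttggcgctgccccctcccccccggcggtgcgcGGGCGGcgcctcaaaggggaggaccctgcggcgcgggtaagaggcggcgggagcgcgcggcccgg
Each motif occurs once there on the plus strand. Searched on both strands, CCAAT is present in 35.7% and GGGCGG in 44.6% of 27305 RefSeq promoter windows, and in 10 and 27 of the 34 members that have a window. The 27305 windows share 1 length, which is longer than the 126 bases printed, so their shares are not those of stretches of 126 bases. A match is a description of letters and not of binding.

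Of the other collagens, 4 were lower in 100K EVs than in 2.8K EVs. COL7A1, the anchoring fibril collagen, was at 32.9, 14.8 and 7.71 CPM in 2.8K EVs, 8.11, 0.503 and 3.41 in 10K EVs, 3.79, 1.65 and 1.59 in 100K EVs and 6.25 in the cells. 2.8K EVs and 10K EVs overlapped and the change of -2.98 ± 0.97, adjusted p = 0.031 between 2.8K EVs and 100K EVs was lost without the 2.8K EV library of set 1 or 2 or any single 100K EV library (adjusted p = 0.052 to 0.14). COL12A1, which decorates fibrils, fell by 1.45 on the log2 scale between 2.8K EVs and 10K EVs (adjusted p = 0.0039) and changed by -0.24 ± 0.28 from there to 100K EVs, which did not pass. COL18A1, the source of endostatin, likewise passed at the first step (-1.19 ± 0.29, adjusted p = 0.017) and not at the second (-0.55 ± 0.29, adjusted p = 0.28), and the first call was lost without the 2.8K EV library of set 2 or any single 10K EV library (adjusted p = 0.051 to 0.095). COL13A1, a transmembrane collagen, passed narrowly in 100K EVs against 2.8K EVs (-0.76 ± 0.27, adjusted p = 0.049), a call lost in 15 of 20 other settings, among them without any single library of 2.8K EVs or 100K EVs or the 10K EV library of set 2 or 3 (adjusted p = 0.053 to 0.19 over the 15).

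The remaining collagens were near the floor. COL16A1 was at 0, 0 and 0.953 CPM in 2.8K EVs, 1.11, 3.77 and 0 in 10K EVs, 1.4, 0 and 1.11 in 100K EVs and 3.73 in the cells. COL17A1, a hemidesmosome component, was at 0, 0 and 7.80 CPM in 2.8K EVs, 0, 0 and 2.37 in 10K EVs, 0.281, 1.83 and 1.91 in 100K EVs and 1.13 in the cells. With 0 in at least 1 library of every pellet for COL16A1 and in 4 of the 6 libraries of the slower spins for COL17A1, no direction could be read, and neither gene passed.

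All 8 laminins and basement membrane proteoglycans were lower in 100K EVs than in 2.8K EVs, by 0.71 to 1.92 on the log2 scale with a median of -1.50. HSPG2, which encodes perlecan, was at 432, 361 and 657 CPM in 2.8K EVs, 184, 168 and 327 in 10K EVs, 129, 129 and 283 in 100K EVs and 609 in the cells. LAMA5, an alpha chain of basement membrane laminins, was at 526, 389 and 319 CPM in 2.8K EVs, 195, 130 and 114 in 10K EVs, 91.9, 141 and 166 in 100K EVs and 252 in the cells. LAMB1, a beta chain, was at 304, 230 and 195 CPM in 2.8K EVs, 187, 128 and 164 in 10K EVs, 141, 154 and 152 in 100K EVs and 296 in the cells. In all 3 the 2.8K EV libraries lay above all 100K EV libraries, and 10K EVs and 100K EVs overlapped. LAMA5 fell by 1.49 ± 0.27 on the log2 scale between 2.8K EVs and 10K EVs (adjusted p = 0.0019) and changed by -0.15 ± 0.26 from 10K EVs to 100K EVs.

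LAMA3, LAMB2 and AGRN passed at that first step too (-1.32, -1.69 and -1.23), and LAMB2 no longer did without the 10K EV library of set 1 (adjusted p = 0.051). LAMA3 is the alpha chain of the laminin under stratified epithelia, LAMB2 a beta chain of basement membranes, and AGRN encodes agrin, a heparan sulfate proteoglycan. HSPG2 and LAMC1 missed the threshold there (adjusted p = 0.063 and 0.0503). Of 20 other settings, HSPG2 passed in 7 and LAMC1 in 6, DESeq2 among them for both (adjusted p = 0.013 and 0.026). HSPG2 passed without the 10K EV library or the 100K EV library of set 3 (adjusted p = 0.031 and 0.015), and LAMC1 without the 2.8K EV library of set 1 (adjusted p = 0.035). No member of this role passed between 10K EVs and 100K EVs, where the changes ran from -0.95 (LAMB3) to -0.11 (LAMB1). AGRN passed this second step without the 2.8K EV library of set 1 or 2 (adjusted p = 0.038 and 0.048), and LAMB3 without the 100K EV library of set 2 (adjusted p = 0.026). The smallest total change was that of LAMB1 (-0.71 ± 0.22, adjusted p = 0.021), lost without the 2.8K EV library of set 1 or 2 or any single 100K EV library (adjusted p = 0.056 to 0.089). The call of LAMC1 between 2.8K EVs and 100K EVs was lost without the 100K EV library of set 1 (adjusted p = 0.061).

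**Figure D2:**
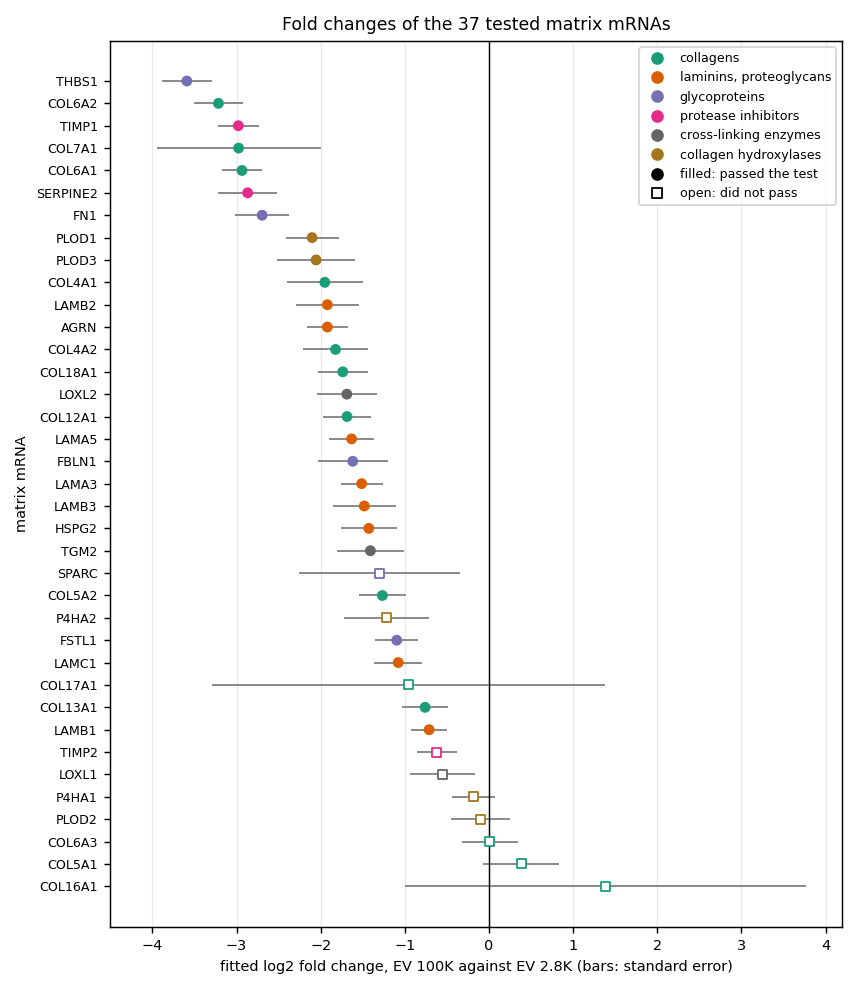
Fitted log2 fold change of 100K EVs against 2.8K EVs for the 37 tested matrix mRNAs (points, with bars of 1 standard error), coloured by role and filled where the adjusted p was under 0.05. The 27 filled points lie at -3.59 to -0.71, and the 10 open points include COL6A3 at 0.01 and COL16A1 at 1.38 with a standard error of 2.38.

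Among the glycoproteins, THBS1 had the largest fall of any member. THBS1, which encodes thrombospondin-1, an adhesive regulator of angiogenesis, was at 195, 114 and 123 CPM in 2.8K EVs, 33.9, 40.9 and 37.8 in 10K EVs, 11.5, 12.3 and 12.2 in 100K EVs and 74.8 in the cells. The pellets did not overlap, its 100K EV libraries lay within 1 CPM of each other, and both steps passed (-1.94 ± 0.27, adjusted p = 1.9e-04, then -1.65 ± 0.28, adjusted p = 7.8e-04), for a total of -3.59 ± 0.30, adjusted p = 1.0e-07. FN1, which encodes fibronectin, was at 169, 134 and 233 CPM in 2.8K EVs, 76.2, 117 and 129 in 10K EVs, 16.3, 34.1 and 32.9 in 100K EVs and 316 in the cells. 100K EVs lay below every other library, whereas 2.8K EVs and 10K EVs were separated by only a few CPM. Accordingly FN1 passed between 10K EVs and 100K EVs (-1.96 ± 0.31, adjusted p = 4.4e-04) and did not between 2.8K EVs and 10K EVs (-0.73 ± 0.30, adjusted p = 0.16).

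FSTL1, a secreted relative of follistatin, was at 160, 152 and 134 CPM in 2.8K EVs, 58.3, 102 and 108 in 10K EVs, 56.2, 73.5 and 79.4 in 100K EVs and 176 in the cells. Only 100K EVs against 2.8K EVs passed (-1.10 ± 0.26, adjusted p = 0.0035), and 10K EVs overlapped 100K EVs. FBLN1, which encodes fibulin-1, was lower in 100K EVs than in 2.8K EVs as well (-1.62 ± 0.42, adjusted p = 0.007). SPARC, the collagen-binding osteonectin, was at 10.3 to 12.2 CPM in 2.8K EVs and at 0.917 to 10.5 in 100K EVs, and its change of -1.30 ± 0.96 did not pass (adjusted p = 0.38). TGFBI was listed at 0 in all 10K EV libraries and in the 2.8K EV libraries of set 1 and 3, reached at most 0.905 CPM in any EV library and was not tested.

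The protease inhibitors split. TIMP1, a small secreted inhibitor of metalloproteinases, was at 308, 253 and 213 CPM in 2.8K EVs, 139, 196 and 205 in 10K EVs, 28.3, 37.8 and 32.6 in 100K EVs and 129 in the cells. Its levels in 2.8K EVs and 10K EVs nearly met, all 6 lay above the cell library, and all 100K EV libraries were below it. TIMP2, a relative that also takes part in MMP2 activation, was at 97.2, 93.7 and 118 CPM in 2.8K EVs, 71.6, 75.4 and 64.9 in 10K EVs, 54.4, 69.8 and 77.5 in 100K EVs and 173 in the cells. For TIMP1 the step from 10K EVs to 100K EVs was -2.46 ± 0.24, adjusted p = 5.9e-06 and that from 2.8K EVs to 10K EVs was -0.52 ± 0.22, adjusted p = 0.19. The TIMP2 levels in 2.8K EVs lay above those of both other pellets, yet no comparison passed (100K EVs against 2.8K EVs: -0.62 ± 0.24, adjusted p = 0.063). The TIMP1 to TIMP2 level ratio was 1.80 to 3.17 in 2.8K EVs, 1.94 to 3.16 in 10K EVs, 0.420 to 0.541 in 100K EVs and 0.747 in the cells.

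SERPINE2, which encodes protease nexin-1, an inhibitor of thrombin and plasminogen activators, was at 82.3, 82.2 and 144 CPM in 2.8K EVs, 49.6, 46.0 and 36.5 in 10K EVs, 12.1, 19.98 and 10.5 in 100K EVs and 70.9 in the cells. The pellets did not overlap, and the total change was -2.87 ± 0.35, adjusted p = 6.9e-06. Its first step (-1.22 ± 0.32, adjusted p = 0.029) was lost without the 2.8K EV library of set 3 or any single 10K EV library (adjusted p = 0.065 to 0.15), and its second step was -1.65 ± 0.33, adjusted p = 0.0032. TIMP3, a matrix-bound inhibitor, had a count of 0 in all 10 libraries, which allows at most 0.0869 CPM in the cells and 0.550 CPM in the shallowest EV library.

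**Figure D3:**
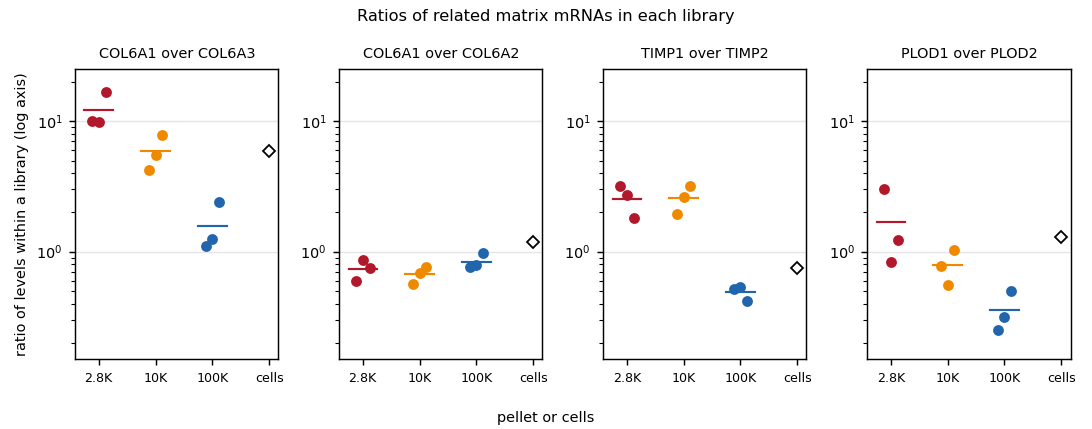
Ratio of the levels of 2 related matrix mRNAs within each library (log axis), for 4 pairs, with 3 libraries per pellet (points, bars are means) and 1 cell library (open diamond). COL6A1 over COL6A3 drops from 9.78 to 16.8 in 2.8K EVs to 1.11 to 2.39 in 100K EVs and TIMP1 over TIMP2 from 1.80 to 3.17 to 0.420 to 0.541, while COL6A1 over COL6A2 stays within 0.561 to 0.969.

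Of the cross-linking enzymes, TGM2, tissue transglutaminase, was at 64.8, 91.4 and 46.3 CPM in 2.8K EVs, 62.3, 60.7 and 42.1 in 10K EVs, 19.6, 43.8 and 13.2 in 100K EVs and 285 in the cells. All EV libraries lay far below the cells, 100K EVs were below 2.8K EVs in every library, and the total change was -1.41 ± 0.40, adjusted p = 0.013. That call was lost without the 2.8K EV library of set 2 or the 100K EV library of set 1 or 3 (adjusted p = 0.062 to 0.088), and the second step, which missed the threshold (-1.12 ± 0.40, adjusted p = 0.083), passed without the 2.8K EV library of set 1 or the 100K EV library of set 2 (adjusted p = 0.048 and 0.0087). LOXL2, a lysyl oxidase that acts on type IV collagen, was at 52.8, 68.7 and 46.4 CPM in 2.8K EVs, 22.1, 25.3 and 41.6 in 10K EVs, 14.9, 18.7 and 18.7 in 100K EVs and 131 in the cells. 2.8K EVs stood above both other pellets, and only the total change passed (-1.69 ± 0.35, adjusted p = 0.0015).

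LOXL1, the elastin-linked lysyl oxidase, was at 21.6, 23.3 and 36.9 CPM in 2.8K EVs, 27.8, 29.4 and 37.1 in 10K EVs, 13.9, 20.9 and 21.4 in 100K EVs and 30.7 in the cells. The levels of 2.8K EVs and 10K EVs overlapped and no comparison passed (100K EVs against 2.8K EVs: -0.55 ± 0.39, adjusted p = 0.35). LOX was at 0, 4.34 and 3.47 CPM in 2.8K EVs, 0, 0 and 1.04 in 10K EVs, 0, 0.550 and 0.636 in 100K EVs and 0.0290 in the cells. It had counts in 5 of the 9 EV libraries, 2 of them in 2.8K EVs, and was not tested.

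The collagen hydroxylases also divided. PLOD1, a lysyl hydroxylase that acts on helical lysines, was at 80.2, 62.1 and 62.0 CPM in 2.8K EVs, 33.8, 37.8 and 51.4 in 10K EVs, 14.7, 15.4 and 17.6 in 100K EVs and 90.6 in the cells. PLOD2, the lysyl hydroxylase of telopeptide lysines, was at 26.4, 75.1 and 50.3 CPM in 2.8K EVs, 43.7, 67.8 and 49.9 in 10K EVs, 58.6, 48.4 and 35.4 in 100K EVs and 70.3 in the cells. P4HA1, a catalytic subunit of prolyl 4-hydroxylase, was at 87.1, 97.3 and 141 CPM in 2.8K EVs, 64.0, 113 and 88.4 in 10K EVs, 98.3, 87.6 and 102 in 100K EVs and 104 in the cells. The pellets of PLOD1 did not overlap, and it fell between 10K EVs and 100K EVs (-1.37 ± 0.31, adjusted p = 0.0067) and over the whole range (-2.10 ± 0.31, adjusted p = 6.3e-05). PLOD2 and P4HA1 overlapped in all pellets, and their changes between 2.8K EVs and 100K EVs did not pass (-0.10 ± 0.35, adjusted p = 0.89, and -0.19 ± 0.26, adjusted p = 0.68). The PLOD1 to PLOD2 level ratio was 0.827 to 3.03 in 2.8K EVs, 0.558 to 1.03 in 10K EVs, 0.251 to 0.498 in 100K EVs and 1.29 in the cells.

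PLOD3, which also glycosylates hydroxylysine, fell between 2.8K EVs and 100K EVs (-2.06 ± 0.46, adjusted p = 0.0025). Its second step missed the threshold (-1.24 ± 0.45, adjusted p = 0.093) and passed without the 2.8K EV library of set 1 (adjusted p = 0.036). P4HA2, the other catalytic prolyl 4-hydroxylase subunit among the members, ran from 16.9 to 50.02 CPM in 2.8K EVs, from 18.5 to 54.7 in 10K EVs and from 10.3 to 15.4 in 100K EVs. 100K EVs were thus below both other pellets, but neither its change from 10K EVs (-1.50 ± 0.51, adjusted p = 0.068) nor that from 2.8K EVs (-1.22 ± 0.51, adjusted p = 0.087) passed. The former passed without the 2.8K EV library of set 1 (adjusted p = 0.018).

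The 2 steps between pellets were then set against each other. In number, 4 of 8 laminins and proteoglycans and 5 of 13 collagens were called at the step from 2.8K EVs to 10K EVs, and 0 of 8 and 2 of 13 at the step from 10K EVs to 100K EVs. For glycoproteins the counts were 1 and 2 of 5, for protease inhibitors 1 and 2 of 3, for hydroxylases 0 and 1 of 5, and for cross-linking enzymes 0 at both. The share of all genes called lower was itself 2.22% at the first of these steps and 7.23% at the second. A contrast of the steps within the same fit, added after seeing the data, called 1 member as falling more at the step to 100K EVs, TIMP1 (difference of steps 1.95 ± 0.38, adjusted p = 0.018). That call was lost without the 10K EV library of set 2 or 3 (adjusted p = 0.090 and 0.12). Of all genes, 1.11% were called with the same sign of the contrast. No member was called as falling more at the step to 10K EVs, and 0.0258% of all genes were called with that sign. The sign does not itself require a fall, so these shares of all genes can include genes that rose at a step. The step pattern of a whole role was therefore not shown to differ.

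**Figure D4:**
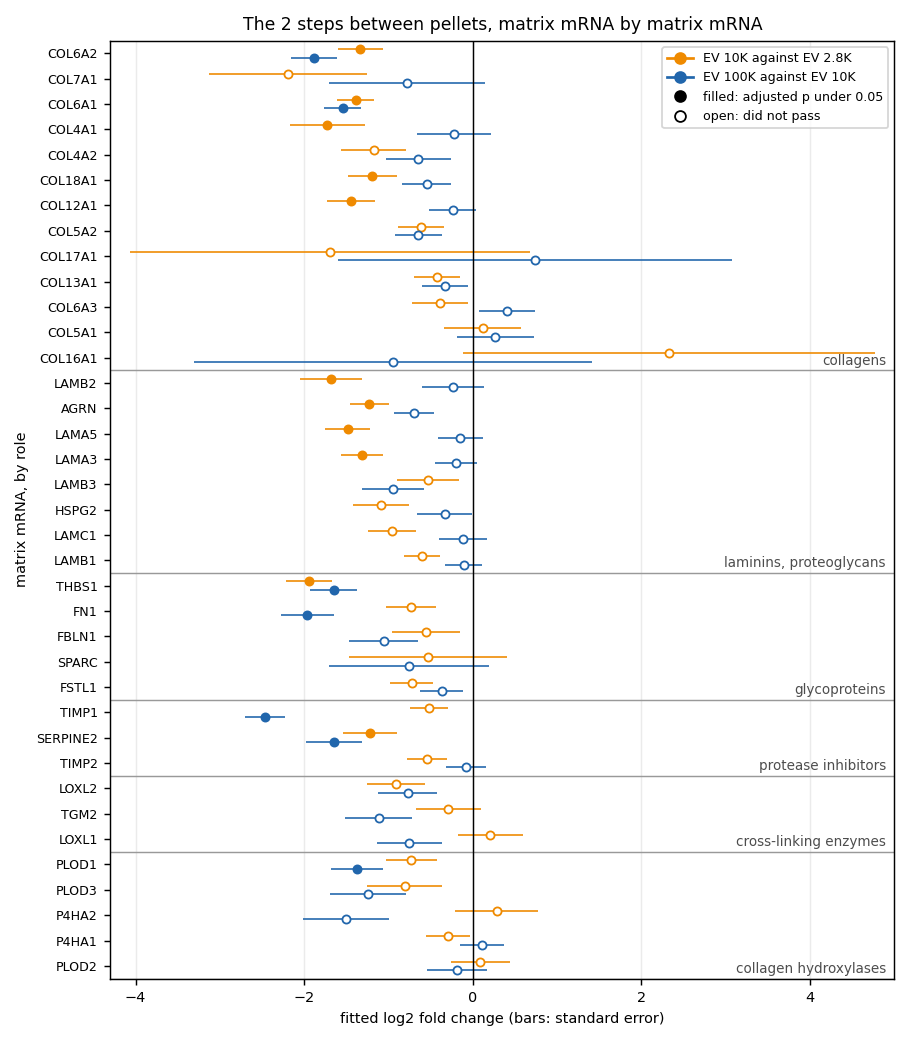
Fitted log2 fold changes of 10K EVs against 2.8K EVs and of 100K EVs against 10K EVs for each of the 37 tested matrix mRNAs, by role, with bars of 1 standard error and filled points where the adjusted p was under 0.05. All 8 laminins and proteoglycans have second-step changes of -0.95 to -0.11 that did not pass, and TIMP1 has the largest second step at -2.46 after a first step of -0.52.

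The members are long mRNAs: their median transcript is 5388 bases over all 40 and 5689 over the 37 tested, against 3175 over the 12009 protein-coding genes tested. Across the 37, transcript length and the log2 change from 2.8K EVs to 10K EVs had a Spearman rho of -0.41, and length and the change from 10K EVs to 100K EVs had a rho of 0.40. For the whole range, from 2.8K EVs to 100K EVs, rho was 0.04. Over all protein-coding genes tested these were -0.03, 0.34 and 0.23. The 2 steps thus had opposite signs among the members, and the whole range showed next to no relation. The shortest transcript is that of TIMP1 at 892 bases and the longest that of HSPG2 at 14327. These values come from the same libraries, genes are not independent replicates, and the part of length in the results was not tested.

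Per length, the order of the members changed between pellets. In 2.8K EVs the highest mean levels per kilobase of transcript were those of COL6A2 at 426 CPM per kb, TIMP1 at 289, COL6A1 at 240.5 and SERPINE2 at 59.97. In 100K EVs they were COL6A2 at 46.1 CPM per kb, TIMP1 at 36.9, P4HA1 at 33.7, COL6A1 at 31.6 and LAMB1 at 25.9. COL6A3 was at 8.44 CPM per kb in 2.8K EVs, 8.55 in 100K EVs and 29.6 in the cells. In the cells COL6A2 at 451 and COL6A1 at 440.2 CPM per kb were close to each other, without a replicate to judge the difference.

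Against the cell library, which has no replicate and allows no test, more members were below the cells at the faster spins. A member was counted where its mean level differed at least 2-fold from the cells and reached 1 CPM in either. In 2.8K EVs, 6 of 38 members were lower (16.6% of all genes) and 3 higher (18.7% of all genes). In 10K EVs, 17 of 37 were lower (20.5% of all genes) and 0 higher (17.2% of all genes), and in 100K EVs, 26 of 37 were lower (25.5% of all genes) and 0 higher (18.2% of all genes). The lower members of 2.8K EVs and of 100K EVs include COL16A1 (pellet means of 0.318 and 0.838 CPM). In these pellets it reached the limit of 1 CPM only through the cells and so could be counted only as lower. The 3 higher in 2.8K EVs were COL7A1 and SPARC (log2 ratios 1.49 and 1.34) and LOX, for which the cells had 1 count and no fold is given. LOX reached the limit of 1 CPM only through 2.8K EVs and so could be counted only there and only as higher, and without it 2 of 37 were higher. Without the 2.8K EV library of set 2 this count was 6 and without that of set 3 it was 5, and without the 10K EV library of set 1 the count for 10K EVs was 1.

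TIMP1 and THBS1 fell just short of that limit in 2.8K EVs (log2 ratios 0.99 and 0.94) and were at -1.96 and -2.59 in 100K EVs. The lowest ratios in 100K EVs were those of COL6A1 (-3.80), FN1 (-3.49), TGM2 (-3.45) and COL6A2 (-3.29). TGM2 was already at -2.07 in 2.8K EVs and COL6A3 at -1.80, and COL6A3 stayed there, at -2.19 in 10K EVs and -1.78 in 100K EVs. P4HA1 (0.06, -0.24 and -0.12), PLOD2 (-0.47, -0.38 and -0.56) and COL5A1 (-0.35, -0.24 and 0.03) remained near the cell level in all 3 pellets.

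**Figure D5:**
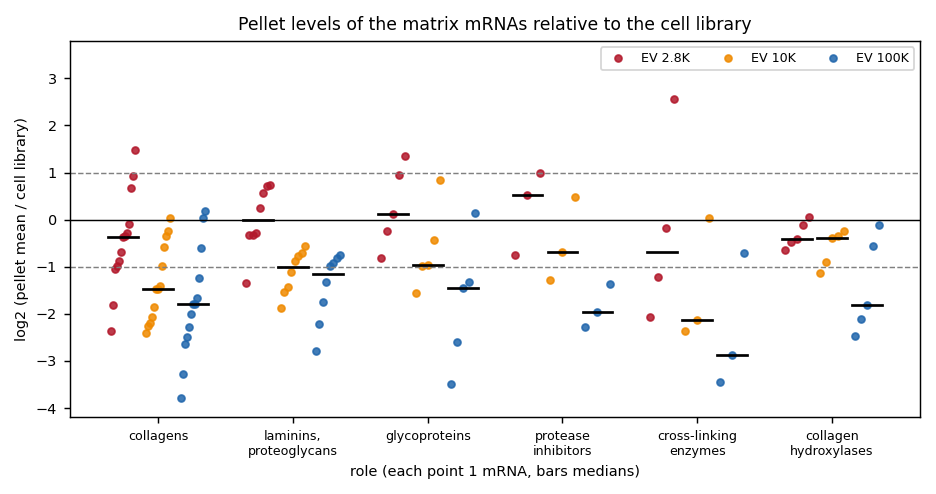
Log2 ratio of the mean pellet level to the single cell library for each matrix mRNA that reached 1 CPM (points), by role and pellet, with medians as bars and dashed lines at 2-fold. In 100K EVs no point lies above the upper dashed line and 26 of 37 lie below the lower one, whereas 2.8K EVs have 6 of 38 below and 3 above.

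Other genes of the pathway were taken from lists fixed by name. Of the collagen folding and export list, 21 of 22 were tested: 10 were lower and 1 higher in 100K EVs than in 2.8K EVs, 3 lower and 1 higher in 10K EVs than in 2.8K EVs, and 3 lower and 0 higher in 100K EVs than in 10K EVs. Over all genes the shares called lower and higher were 13.8% and 12%, 2.22% and 4.15%, and 7.23% and 3.7% in these comparisons, and they apply to the lists that follow too. PPIB (-2.53), P4HB (-1.90) and P3H1 (-2.97), a prolyl isomerase, the beta subunit of prolyl 4-hydroxylase and a prolyl 3-hydroxylase, fell between 2.8K EVs and 100K EVs. CRTAP, the cartilage-associated protein that works in 1 complex with the products of P3H1 and PPIB, was at 569, 372 and 646 CPM in 2.8K EVs, 1262, 1045 and 1319 in 10K EVs, 1379, 1214 and 1549 in 100K EVs and 320 in the cells. It rose between 2.8K EVs and 10K EVs (1.19 ± 0.21, adjusted p = 0.0017) and over the whole range (1.38 ± 0.21, adjusted p = 8.6e-05), and all 9 EV libraries exceeded the cells. The mRNAs of that complex thus moved in opposite directions. HSP90B1, an endoplasmic reticulum chaperone, was at 875, 1118 and 975 CPM in 2.8K EVs, 361, 513 and 419 in 10K EVs, 128, 129 and 141 in 100K EVs and 681 in the cells.

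Of the matrix proteases and their activators, 26 of 31 were tested and 10 were lower in 100K EVs than in 2.8K EVs, 3 lower in 10K EVs than in 2.8K EVs and 6 lower in 100K EVs than in 10K EVs, with 0 higher in each. PLAT (-2.29) and PLAUR (-2.81), which encode tissue plasminogen activator and the urokinase receptor, were among those lower in 100K EVs than in 2.8K EVs. Of the non-integrin matrix receptors, 13 of 15 were tested, 8 were lower and 0 higher in 100K EVs than in 2.8K EVs, and 1, LRP1 (-1.31, named after its value was known), was lower in 10K EVs than in 2.8K EVs. The smallest p-values of 100K EVs against 2.8K EVs were those of the glypican GPC1 (-2.87) and the hyaluronan receptors CD44 (-1.58) and HMMR (-2.07), which are not all the largest changes. 100K EVs against 10K EVs gave 4 lower and 1 higher, the syndecan SDC1 (0.80 ± 0.19, adjusted p = 0.0088), singled out once its values were known.

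Of 46 other matrix components, 28 were tested, and 11 were lower and 0 higher in 100K EVs than in 2.8K EVs, 6 lower and 0 higher in 10K EVs than in 2.8K EVs, and 2 lower and 2 higher in 100K EVs than in 10K EVs. At 7.14% each of those tested, the last 2 counts stand beside 7.23% lower and 3.7% higher over all genes. CYR61 (-2.71) and TNC (-2.90), encoding a matricellular protein and tenascin-C, fell between 2.8K EVs and 100K EVs. The 2 higher ones, LTBP4 and PXDN, were named after their values were seen. LTBP4, which encodes a protein that holds latent TGF-beta in the matrix, was at 34.6, 47.8 and 20.3 CPM in 2.8K EVs, 4.56, 2.77 and 5.78 in 10K EVs, 21.2, 24.0 and 16.5 in 100K EVs and 37.8 in the cells. All 10K EV libraries lay below all other libraries, with -2.96 ± 0.50, adjusted p = 0.0011 against 2.8K EVs and 2.22 ± 0.49, adjusted p = 0.0057 for 100K EVs against 10K EVs. PXDN, the peroxidase that cross-links type IV collagen, was lower in 10K EVs than in 2.8K EVs (-0.70 ± 0.20, adjusted p = 0.042) and higher in 100K EVs than in 10K EVs (0.65 ± 0.20, adjusted p = 0.044).

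Markers of cells that make matrix in tissue were low or absent. Of 10 fibroblast markers, DCN, LUM, FAP and DPT were at 0 in all 10 libraries and COL1A2 in 9. COL1A1 and COL3A1 had counts in all 10 libraries and reached 27.4 and 16.0 CPM at most. PDGFRA was at 0 in 4 libraries, PDGFRB in 8 and THY1 in 9, and they reached 1.38, 0.561 and 6.89 CPM at most. The fibroblast markers summed to 14.4 to 43.4 CPM in 2.8K EVs, 5.91 to 13.1 in 10K EVs, 7.94 to 13.7 in 100K EVs and 15.4 in the cells, and their part in the matrix results was not tested. Of 6 endothelial markers CLDN5 and TEK were at 0 in all 10 libraries, and the sum was 3.13 to 10.5 CPM in the EV libraries. KDR had counts in all 10 libraries, at 6.08 CPM at most, and PECAM1 was at 0 in 1 and reached 8.71 CPM. The 6 leukocyte markers summed to at most 4.78 CPM, and the 6 blood and serum markers to at most 2.77 CPM. Among the leukocyte markers, PTPRC and CD3E were at 0 in all 10 libraries, and CD14 was at 0 in 5 and reached 3.56 CPM.

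Some members overlap other expressed genes on the opposite strand, and the strand setting of the counting is not stated. This holds for COL4A1 with COL4A2, COL18A1 with SLC19A1, LAMA5 with ADRM1, LAMB1 with DLD, THBS1 with FSIP1, TGM2 with RPRD1B, LOX with SRFBP1, PLOD3 with ZNHIT1 and P4HA2 with PDLIM4, and counts of these members are uncertain to that extent. On the same strand, LOXL2 overlaps ENTPD4 (1859 counts in the EV libraries) and TIMP2 overlaps CEP295NL (77). No strand setting separates these, and the counts of LOXL2 and TIMP2 carry that uncertainty.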

How the data were processed

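The data are 10 libraries of total RNA, 9 from EV pellets and 1 from whole PC3 cells, made with a SMARTer stranded kit per the labels' protocols. The deposited values are whole-number read counts per gene, not normalized. The authors' tools, per the submitters' processing notes, were featureCounts 1.6.3, STAR 2.6.1d, cutadapt 2.7 and bcl2fastq 2.19.1.403, and the build GRCh38. The strand setting and annotation used in counting were not given in the sources used. Groups and set numbers come from the sample titles.

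Counts of all genes were fitted with edgeR 4.0.16 in R 4.3.3: filterByExpr with a minimum count of 10, TMM, a robust quasi-likelihood F-test on the 9 EV libraries with pellet as the only factor, Benjamini-Hochberg adjustment over 15525 genes, threshold 0.05. Levels are CPM with TMM factors of all 10 libraries. Ratios to the cells used a pseudocount of 0.5 CPM. Python 3.11.15 and matplotlib 3.10.9 were used for sequences and figures, and DESeq2 1.42.0 for an alternative. Symbols, coordinates and transcripts are from GENCODE 29, matched by identifier. The scripts were tested on simulated counts. No pair of libraries of a group agreed within sampling noise (chi-square per degree of freedom 9.85 to 153).

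The members and lists were chosen with earlier results of these data known. Values in every library are given for the 3 most abundant members of each role, the 5 with the lowest and the 5 with the highest change between 2.8K and 100K EVs, and members not tested. From each other list up to 3 called genes with the smallest p in that comparison, and up to 2 called in the other direction, are named, and some items that the rule picks are not reported here. ACTB, GAPDH, HSP90B1 and MT-CO1 serve as reference. Intervals and floors cover counting error only.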

Additional observations from a re-analysis of the deposited data

How the results depend on the processing

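Of the calls lower, 22 of 27 between 2.8K EVs and 100K EVs, 7 of 11 between 2.8K EVs and 10K EVs and 7 of 7 between 10K EVs and 100K EVs held in all 20 other settings, no call changed direction, and 37 of 1270 values not called changed sign. The 20 settings were RLE size factors, library totals only, DESeq2, 2 other low-count filters, the set number as a block, 2 other selections of libraries, 3 removals of RNAs and each EV library left out. With only the 6 libraries compared in the fit, or with all 10, 11 members were lower in 100K EVs than in 10K EVs, against 7. Leaving out 1 library, that count ran from 7 to 11 and the count between 2.8K EVs and 10K EVs from 7 to 13. Deviations from the group means correlated at -0.01 to 0.05 in same-numbered libraries (8 of 9 pairs above 0) and at -0.04 to 0.03 in differently numbered ones (4 of 18 above 0). All were under 0.1 and the labels name no shared culture, so pairing was not assumed, though it was not shown to be absent. The replicate block gave 13, 26 and 9 lower members for 11, 27 and 7: it added HSPG2 and LAMC1 (adjusted p = 3.1e-04 and 0.022) at the first step and LAMB3 and TGM2 (0.030 and 0.012) at the second, and lost COL13A1 (0.056). As a share of protein-coding nuclear counts the members held 0.791%, 0.352% and 0.205% in 2.8K EVs, 10K EVs and 100K EVs, and without lnc-ARF6-1, a dominant noncoding entry, 0.331% in 10K EVs. At 3-fold instead of 2-fold, 3 members were below and 1 above the cells in 2.8K EVs and 8 below in 10K EVs. Leaving out 1 library, the members above the cells ran from 3 to 6 in 2.8K EVs and from 0 to 1 in 10K EVs. Over all genes, calls between 2.8K EVs and 10K EVs ran from 167 to 638 lower and from 362 to 997 higher, against 345 and 645, and those lower in 100K EVs against 10K EVs ran from 703 to 1578, against 1122, and higher from 266 to 1199, against 575. With library totals only, the median of all genes between 2.8K EVs and 100K EVs was -0.21 on the log2 scale and that of the members -1.64. COL16A1, COL17A1, TGFBI and LOX had 0 in some EV libraries and up to 90 counts in others, and gave no direction. For TIMP3, at 0 throughout, depth sets only an upper limit.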
